A study of Mus musculus with 4 samples.

Results

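The quantity described here is the difference between the interferon gamma (IFN-γ) effects of 2 mouse tumor cell lines. For each gene, the IFN-γ effect in AB1-HA cells was subtracted from the IFN-γ effect in LLC cells, so a positive value lies toward LLC and a negative value toward AB1-HA. Members were the gene probes that the scanner marked as well above background on all 4 arrays: 20690 of 39429 probes. A gene was represented by its brightest named probe, which gave 11999 member genes of 20140 genes with a named probe. The dimmest members lay between −7.64 and −7.33 on the 4 arrays, in log2 units relative to the array's 75th percentile, and the dimmest signals marked as well above background were 7.01 to 8.26 intensity units.

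The 4 groups were AB1-HA cells with vehicle, AB1-HA cells with IFN-γ, LLC cells with vehicle and LLC cells with IFN-γ, each cultured for 24 h and each measured on 1 array. AB1-HA is a mesothelioma line of the BALB/c strain engineered to make influenza hemagglutinin. LLC, titled 3LL in the labels, is the Lewis lung carcinoma line, of the C57BL6 strain. The line, the tumor type and the strain therefore cannot be told apart. The IFN-γ dose and the number of cultures behind each RNA sample are not given in the sources used here. With 1 array per group there was no replicate check, no test was run, and 2-fold is a threshold of size. The number of arrays limits the precision of every value.

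The labelled tumor types were checked against marker lists. The mesothelial marker Msln was 378-fold higher in AB1-HA than in LLC with vehicle, and Krt18, a simple-epithelial keratin that the mesothelial list also holds, was 485-fold higher in LLC. The log2 of the summed mesothelial level was 5.51 and 5.16 in AB1-HA and 6.52 and 6.17 in LLC, with vehicle and with IFN-γ. Krt18, at 6.39 and 6.04, made up most of the LLC sum. Of the 3 mesothelial markers that were members, 2 were at least 2-fold higher in AB1-HA with vehicle and 1 in LLC. Their median gap, LLC minus AB1-HA, was −1.69 with vehicle and −1.90 with IFN-γ. Wt1, Calb2 and Upk3b, which also mark mesothelium, and Sftpc, Nkx2-1, Epcam and Cdh1, which mark lung epithelium, were not well above background on any array. Of 13 mesothelial markers 5 to 7 were well above background per array, and of 13 lung epithelial markers 4 to 6. Among the lung epithelial markers, Scgb1a1 and Lamp3 were so on all 4 arrays, and Foxa2 and Ager on the LLC arrays alone. Sftpd and Napsa were so on every array but LLC with IFN-γ. The log2 of the summed lung epithelial level was 4.65 and 4.35 in AB1-HA and 4.66 and 4.76 in LLC, with vehicle and with IFN-γ. Of 12 leukocyte markers 5 or 6 were well above background per array. Cd3e, Itgam, Csf1r, Fcer1g and Nkg7 were so on all 4 arrays, and Ptprc, Adgre1, Tyrobp, Lyz2 and Cd52 were among those below that mark on every array. The log2 of the summed leukocyte level was 1.80 and 1.86 in AB1-HA and 1.52 and 1.82 in LLC, in the same order.

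IFN-γ binds a receptor on the cell surface, activates the JAK kinases attached to it, and through STAT proteins switches on a first set of genes such as Irf1. These then carry the response to antigen presentation, chemokines, cell-autonomous defence and checkpoint ligands. A gene's IFN-γ effect can differ between lines in several ways that a fold change alone does not separate: the lines may start from different vehicle levels and meet under IFN-γ, or start level and part under IFN-γ. The difference of effects is exactly the gap between the lines with IFN-γ minus the gap with vehicle, both counted as LLC minus AB1-HA, so each gene was sorted by which gap reached 2-fold.

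Promoter sequences are shown for 3 genes that lay at the ends of the distribution and took different routes there: Cxcl10, whose lines met under IFN-γ, Gbp2b, which was high in AB1-HA with IFN-γ and dim in LLC, and H2-Eb1, whose order of lines turned. Each is the 250 bases before the RefSeq gene start on build GRCm38.p6, a C57BL/6J reference, written 5′ to 3′ on the gene's strand, so the BALB/c sequence of AB1-HA is not represented. Capitals mark matches to the interferon-stimulated response element core (ISRE core, GAAA then 2 bases of any kind then GAAA), the NF-κB consensus, the MHC class II X box core (AGCAAC, then any base, then GATG) and the Y box core GATTGG, on either strand. The X and Y box letters were chosen after the H2-Eb1 window had been seen.
Cxcl10, chr5:92348890-92349139, minus strand: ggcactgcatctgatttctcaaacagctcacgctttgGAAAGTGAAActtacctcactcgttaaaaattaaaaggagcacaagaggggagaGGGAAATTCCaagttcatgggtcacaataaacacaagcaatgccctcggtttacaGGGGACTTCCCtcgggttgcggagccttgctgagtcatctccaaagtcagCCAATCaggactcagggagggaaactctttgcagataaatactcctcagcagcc
Gbp2b, chr3:142594597-142594846, plus strand: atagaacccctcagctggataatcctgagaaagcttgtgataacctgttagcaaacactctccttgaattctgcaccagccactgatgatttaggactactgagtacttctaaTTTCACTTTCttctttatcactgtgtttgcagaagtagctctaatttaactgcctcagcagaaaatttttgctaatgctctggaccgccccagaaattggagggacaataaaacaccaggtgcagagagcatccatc
H2-Eb1, chr17:34305617-34305866, plus strand: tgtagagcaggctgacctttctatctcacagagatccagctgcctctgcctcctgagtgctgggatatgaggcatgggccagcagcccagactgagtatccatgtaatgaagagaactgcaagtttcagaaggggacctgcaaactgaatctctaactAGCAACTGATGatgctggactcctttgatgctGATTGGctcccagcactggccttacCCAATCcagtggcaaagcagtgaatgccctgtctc

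The Cxcl10 window holds 1 ISRE core match, 213 to 204 bases before the start, and NF-κB matches at 159 to 150, 104 to 95 and 103 to 94, of which the last 2 overlap, and 1 Y box match at 54 to 49. The Gbp2b window holds 1 ISRE core match, at 137 to 128. The H2-Eb1 window holds the X box match at 92 to 82 and Y box matches at 60 to 55 and 35 to 30. The ISRE core was found in 3.46% of the 27025 genes with a promoter in the table and in 3.04% of the 9630 member genes with one. It was found in 12.5% of 96 genes that were at least 2-fold higher with IFN-γ in LLC with a difference past 2-fold toward LLC, in 16.7% of 60 such genes on the AB1-HA side, and in 27.4% of 84 genes at least 2-fold higher in both lines with a difference within 2-fold. NF-κB consensus matches were in 8.23% of all promoters of this length, Y box matches in 16.6% and X box matches in 0.0703%. Among the member genes with a promoter, the shares were 10.5%, 22.2% and 0.0415%. A match describes letters in a window and not a bound site, and the core TTCNNNGAA of the gamma-activated site was also searched and lay in 8.13% of all promoters and in none of the 3 windows printed. The window of Ifi47, the third furthest gene toward LLC, was searched as well and held no match to any of these motifs.

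Over the 11999 genes, the difference of effects had a median of 0.03 on the log2 scale, with quartiles at −0.20 and 0.28, and the effects correlated at r = 0.631 across genes, which are not independent replicates. The difference reached 2-fold toward LLC for 305 genes (2.54% of those compared) and toward AB1-HA for 203 genes (1.69%). At 4-fold the counts were 35 toward LLC (0.292%) and 26 toward AB1-HA (0.217%). The split of calls depended on the scaling: 305 of the 508 calls lay toward LLC with the 75th percentile, against 47.0% after quantile normalization, 39.9% with the array median and 36.0% after cyclic loess normalization. The excess of calls toward LLC was thus not shared by those 3 scalings. Sizes depended most on normexp, an alternative way to correct the local background, run with an offset of 50 intensity units. Of 86 named genes past 2-fold with a value under it, 54 moved by over 1.5-fold, all 54 toward 0. An offset added to every signal draws the fold changes of dim genes toward 0 by itself. The normexp values therefore cannot separate the background correction from the offset.

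An IFN-γ effect of at least 2-fold upward was found for 259 member genes in AB1-HA (2.16%) and 323 in LLC (2.69%). Of 172 genes at least 2-fold higher with IFN-γ in each line, 114 differed by less than 2-fold between the lines, 27 lay toward LLC and 31 toward AB1-HA. Another 151 genes were at least 2-fold higher in LLC alone, of which 110 had a difference past 2-fold, and 86 in AB1-HA alone, of which 48 did. For 133 of the 305 genes toward LLC and 94 of the 203 toward AB1-HA, neither line's own effect reached 2-fold, so their difference was made of smaller shifts of opposite sign. Among genes lower with IFN-γ, 34 toward LLC were at least 2-fold lower in AB1-HA and within 2-fold in LLC, and 29 toward AB1-HA were at least 2-fold lower in LLC and within 2-fold in AB1-HA. In each line 68 genes (0.567%) were at least 2-fold lower with IFN-γ.

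**Figure D1:**
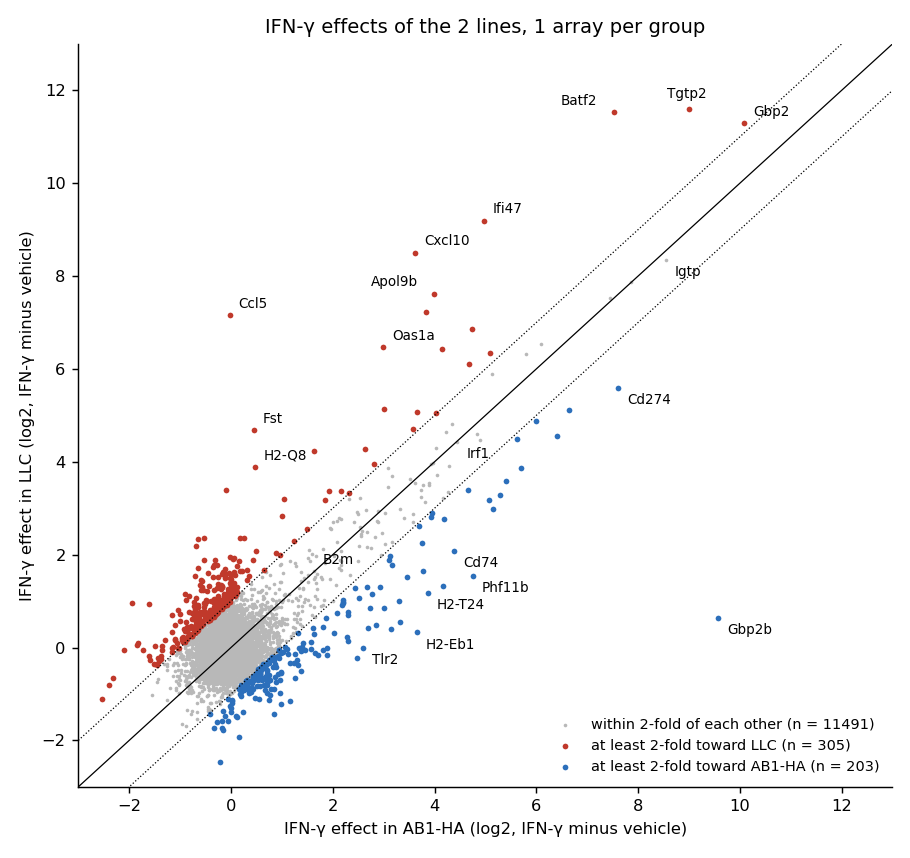
Each point is 1 member gene, with its IFN-γ effect in AB1-HA on the x axis and in LLC on the y axis, both as log2 differences of 1 IFN-γ array and 1 vehicle array. The solid line marks equal effects and the dotted lines a 2-fold difference. The 305 genes toward LLC are red and the 203 toward AB1-HA blue. Igtp, Irf1 and B2m lie near the line of equal effects, Ccl5 lies far above it at an AB1-HA effect of −0.03, and Gbp2b far below it at an LLC effect of 0.64.

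Sorting by gap separated the 2 directions. Toward LLC, 129 of 305 genes (42.3%) differed by vehicle level: they were lower in LLC than in AB1-HA with vehicle by at least 2-fold and within 2-fold of each other with IFN-γ. Another 40 (13.1%) differed by treated level, with LLC higher under IFN-γ and a vehicle gap under 2-fold. Of the 71 with both gaps past 2-fold, the gap narrowed with IFN-γ for 48, widened for 22 and turned for 1, which was Ccl5. For 65 genes neither gap reached 2-fold. Genes of the vehicle class toward AB1-HA are by definition higher in LLC with vehicle. In this direction the treated class was larger in share, with 53 of 203 genes (26.1%), against 44 (21.7%) that differed by vehicle level. That order turned with the array median (76 treated and 77 vehicle), with cyclic loess (72 and 84) and with outlier spots kept (53 and 58). Toward LLC the same settings gave 23 treated and 89 vehicle, 27 and 67, and 39 and 129. Under them the vehicle class was thus the larger in both directions. In the class with both gaps, 81 genes, the gap narrowed for 37, widened for 41 and turned for 3, which were H2-Eb1, Hfe and Mlph, and 25 genes had neither gap. Assigning each gene to the larger of its 2 gaps gave 215 by vehicle level and 90 by treated level toward LLC, and 94 and 109 toward AB1-HA. As a background, 26.2% of all members had a vehicle gap of at least 2-fold and 22.9% a treated gap.

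The vehicle class toward LLC was led by Cxcl10, Ifi47 and Batf2, all higher with IFN-γ in both lines. Cxcl10, a chemokine that draws T cells through CXCR3, had levels of 0.04 with vehicle and 3.66 with IFN-γ in AB1-HA, and of −5.39 and 3.12 in LLC. The LLC vehicle array stood alone at the bottom and the IFN-γ arrays of the lines were close. Its IFN-γ effect was 12.3-fold in AB1-HA and 363-fold in LLC, a difference of effects of 4.89 that came from a vehicle gap of −5.43 and a treated gap of −0.55. With normexp the differences of these 3 genes were 2.96 for Cxcl10, 3.24 for Ifi47 and 1.999 for Batf2. Ifi47, a GTPase of the immunity-related family that acts against pathogens in vacuoles, had levels of 1.25 and 6.22 in AB1-HA and of −3.82 and 5.38 in LLC, a difference of 4.22. Again the LLC vehicle array was low and the lines met under IFN-γ. Batf2, a transcription factor that partners Irf1 in macrophages, had levels of −3.33 and 4.21 in AB1-HA and of −6.45 and 5.08 in LLC, a difference of 3.998. Here both vehicle arrays were low, the LLC array more so, and with IFN-γ LLC was slightly above AB1-HA.

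Further named genes of this class were also lowest in LLC with vehicle. Tgtp2, a further immunity-related GTPase, had levels of −1.73 and 7.26 in AB1-HA and of −5.00 and 6.61 in LLC, a difference of 2.61. Tubb3, a beta tubulin typical of neurons, had levels of 0.46 and 2.08 in AB1-HA and of −1.96 and 2.27 in LLC, a difference of 2.61. Both were lowest on the LLC vehicle array and within 2-fold between the lines on the IFN-γ arrays. Cfap45, a protein of cilia, was level in AB1-HA at −1.87 and −1.97 and went from −6.24 to −2.86 in LLC, a difference of 3.48. Rprl2 (2.89), Fam13c (2.89), Vmn1r87 (2.41) and Zfp36l3 (2.35) also belonged here, each with an AB1-HA effect between −0.70 and −0.52, so part of their difference was a lower AB1-HA level. With normexp the difference was 1.04 for Tgtp2, 1.58 for Cfap45, 1.88 for Rprl2, 2.18 for Fam13c, 1.08 for Zfp36l3 and 0.96 for Vmn1r87.

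Toward LLC, the class with both gaps held Ccl5, Fst, Oas1a and the Apol9 pair. Ccl5, a chemokine for T cells and monocytes, was the member furthest toward LLC at 7.19. Its levels were −0.27 and −0.30 in AB1-HA and −6.38 and 0.79 in LLC. The AB1-HA arrays were 1.02-fold apart, and LLC passed from far below them to 2.12-fold above. With normexp the difference was 4.28. Fst, the secreted activin antagonist follistatin, had levels of 3.96 and 4.42 in AB1-HA and of −1.58 and 3.10 in LLC, a difference of 4.22. The order of the lines stayed the same and the gap narrowed from 46.4-fold to 2.49-fold. Oas1a, an oligoadenylate synthetase that senses double-stranded RNA, had levels of 2.20 and 5.19 in AB1-HA and of −5.52 and 0.95 in LLC, a difference of 3.48 that was 1.17 with normexp. Both lines were higher with IFN-γ, and LLC with IFN-γ remained below AB1-HA with vehicle.

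Apol9b, an interferon-inducible apolipoprotein L, had levels of 2.17 and 6.16 in AB1-HA and of −4.36 and 3.27 in LLC, a difference of 3.63, and its near-identical neighbour Apol9a had 3.38. As these copies may cross-hybridise, they may not be separate observations. Akr1c18, an aldo-keto reductase that inactivates progesterone, had levels of −1.27 and −1.93 in AB1-HA and of −6.91 and −4.57 in LLC, a difference of 2.99. Its AB1-HA level was lower with IFN-γ and its LLC level higher, so the gap narrowed from both ends. With normexp these differences were 1.98 for Apol9b, 2.52 for Apol9a and 1.499 for Akr1c18.

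The treated class toward LLC was led by H2-Q8, which belongs to the nonclassical MHC class I genes of the Qa region. Its levels were −4.93 and −4.47 in AB1-HA and −5.40 and −1.50 in LLC. The vehicle arrays of the lines were within 2-fold, and the LLC IFN-γ array stood alone at the top, 7.79-fold above AB1-HA. Pla1a, a phospholipase that makes lysophosphatidylserine, had levels of −3.72 and −2.68 in AB1-HA and of −3.53 and −0.33 in LLC, a difference of 2.15. Both lines were higher with IFN-γ, LLC more so. Hbegf, a ligand of the EGF receptor, had levels of 2.19 and 1.15 in AB1-HA and of 1.46 and 2.27 in LLC, a difference of 1.85. The lines moved apart in opposite directions from a vehicle gap under 2-fold. Sele, the adhesion molecule E-selectin, had a difference of 2.01, with effects of −0.56 in AB1-HA and 1.44 in LLC. The other genes named in this class were 1700012B09Rik (2.90), Gsta1 (2.56), Ikzf4 (1.96), Serpina1c (1.81), Mmp17 (1.76) and Speer5-ps1 (1.76). With normexp, the last 5 of these were under 2-fold, at 0.46 to 0.87, and H2-Q8 was at 2.25, 1700012B09Rik at 1.68 and Sele at 1.03.

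Gbp2b was the member furthest toward AB1-HA, at −8.94. It encodes a guanylate-binding protein, a GTPase that coats vacuoles of pathogens. Its levels were −4.05 and 5.53 in AB1-HA and −6.97 and −6.33 in LLC. The AB1-HA IFN-γ array stood alone at the top, 766-fold above its vehicle array, while both LLC arrays were at the bottom of the range. The treated gap of −11.86 was the larger part of the difference and the vehicle gap was −2.92. With normexp the other of its 2 named probes was the brightest and was not well above background on all 4 arrays, so the gene had no value. The minimum signal of 50 left it out as well. Over the 7 other alternatives the difference was −9.09 to −8.94. Those 7 do not test how far the dim LLC signals set its size.

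**Figure D2:**
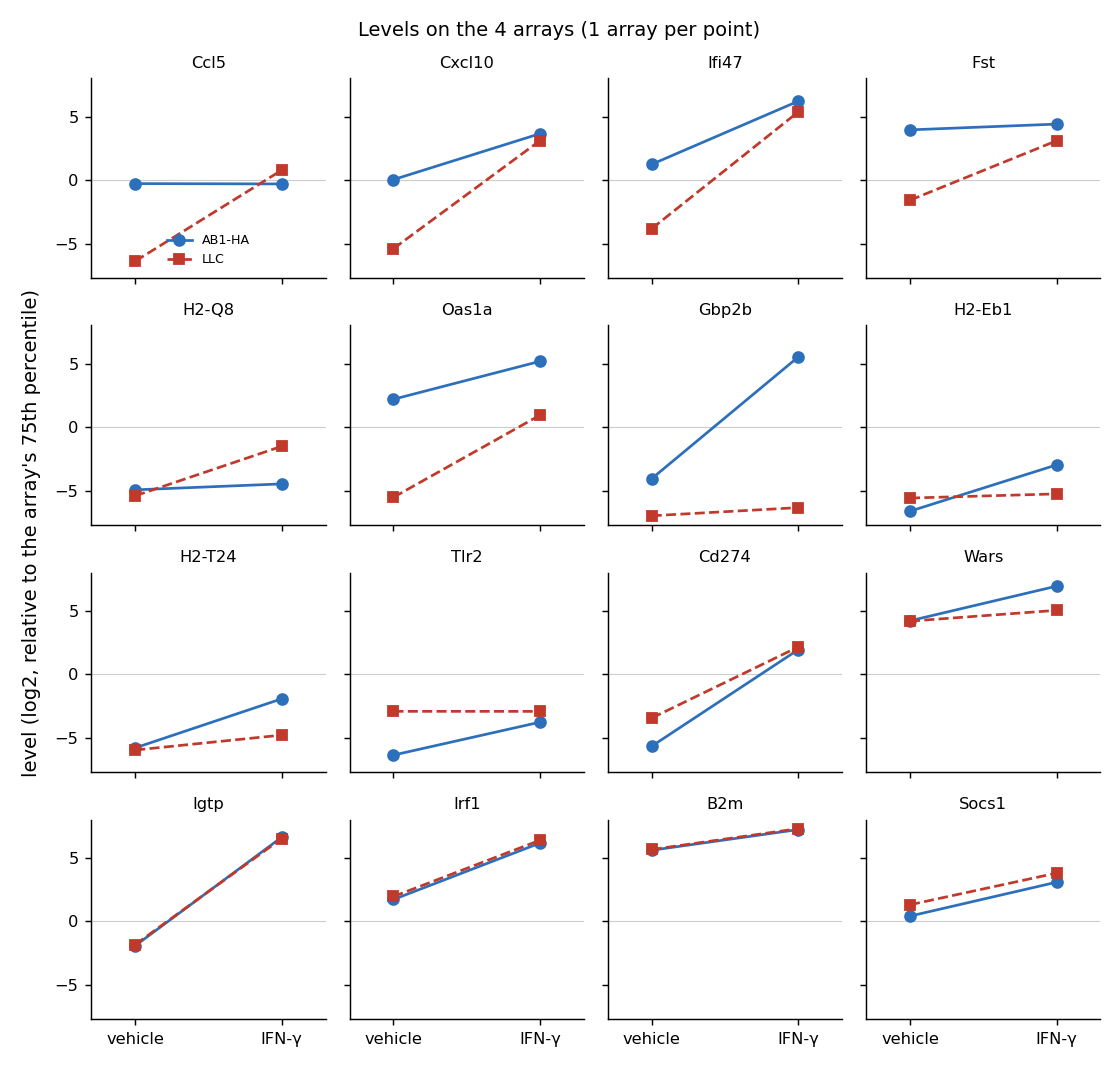
Levels of 16 member genes on the 4 arrays, in log2 units relative to each array's 75th percentile. Each point is 1 array, with AB1-HA as blue circles and solid lines and LLC as red squares and dashed lines. The LLC line starts lowest and meets or nears the AB1-HA line for Cxcl10 and Ifi47, the lines part under IFN-γ for H2-Q8, Gbp2b, H2-T24 and Wars, and they run together for Igtp, Irf1 and B2m.

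Genes toward AB1-HA that differed by treated level included antigen presentation, sensing and translation genes. H2-T24, a nonclassical MHC class I gene, had levels of −5.80 and −1.93 in AB1-HA and of −5.97 and −4.79 in LLC, a difference of −2.69. Cd74, the invariant chain that escorts MHC class II molecules, had levels of −6.71 and −2.33 in AB1-HA and of −7.43 and −5.35 in LLC, a difference of −2.30. Tlr3, a receptor for double-stranded RNA in endosomes, had levels of −5.90 and −2.13 in AB1-HA and of −6.80 and −5.15 in LLC, a difference of −2.12. All 3 were higher with IFN-γ in both lines, and the AB1-HA IFN-γ array was highest. With normexp the differences were −1.11 for H2-T24, −1.58 for Cd74 and −1.52 for Tlr3.

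Wars, which encodes tryptophanyl-tRNA synthetase, had levels of 4.21 and 6.94 in AB1-HA and of 4.18 and 5.04 in LLC. The vehicle arrays were level and the difference of −1.87 lay in the treated gap of −1.90; another probe of the gene gave −1.86. Insl6, a relaxin family peptide, had levels of −1.33 and 3.96 in AB1-HA and of −1.22 and 2.07 in LLC, a difference of −2.01. Bmf, a pro-apoptotic BH3-only protein, had effects of 0.97 in AB1-HA and −0.98 in LLC from vehicle levels within 2-fold. Tmem119 (−2.26), Mogat2 (−2.25), Mab21l3 (−2.21) and Rasl11a (−1.92) were the other genes named among the 53 of this class, and in each of these 4 the LLC level was lower with IFN-γ. With normexp the difference was −0.36 for Mogat2, −1.18 for Mab21l3 and −1.11 for Bmf.

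The class with both gaps on the AB1-HA side held genes of several shapes. H2-Eb1, the beta chain of an MHC class II molecule, had levels of −6.61 and −2.97 in AB1-HA and of −5.58 and −5.25 in LLC, a difference of −3.32. AB1-HA was the lower line with vehicle and the higher with IFN-γ. Hfe, an MHC-like protein that adjusts iron uptake, turned in the same way, with levels of −2.52 and 0.63 in AB1-HA and of −1.38 and −0.98 in LLC, a difference of −2.75. Phf11b, a PHD finger protein, had levels of −3.77 and 0.98 in AB1-HA and of −6.04 and −4.49 in LLC, a difference of −3.20. AB1-HA was above LLC on both pairs of arrays and the gap widened from 4.84-fold to 44.6-fold. Neurl3, a ubiquitin ligase, widened likewise, with a difference of −2.37. With normexp H2-Eb1 was at −1.17, Neurl3 at −1.20 and Mlph, at −2.33 as reported, at −0.30.

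For 3 further genes LLC was the higher line on both pairs of arrays, and the AB1-HA level was closer to it with IFN-γ. Septin4, a filament-forming GTPase, had levels of −7.21 and −3.05 in AB1-HA and of −0.62 and 0.70 in LLC, a difference of −2.84. Pcbp3, an RNA-binding protein, had levels of −6.73 and −4.26 in AB1-HA and of 2.10 and 1.87 in LLC, a difference of −2.70. Asap3, an activator of Arf GTPases, had −2.78. The AB1-HA vehicle levels of the 3 lay between −7.21 and −6.16. With normexp these 3 differences were under 2-fold, at 0.15 for Septin4, −0.53 for Pcbp3 and −0.47 for Asap3.

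The vehicle class toward AB1-HA, whose genes are by definition higher in LLC with vehicle, included Cd274, Ly6a and Ly6c1. Cd274 (PD-L1, a ligand that restrains T cells) had levels of −5.66 and 1.94 in AB1-HA and of −3.45 and 2.15 in LLC. The IFN-γ arrays were level, so the difference of −2.01 lay in the vehicle gap of 2.22. With normexp it was −0.23. Ly6a, the surface protein Sca-1, had levels of −0.03 and 5.67 in AB1-HA and of 1.48 and 5.34 in LLC, a difference of −1.83. Ly6c1, a related surface protein, had 1.26 and 6.40 in AB1-HA and 3.79 and 6.77 in LLC, a difference of −2.16, with −1.84 from another probe. For both the lines met under IFN-γ from an AB1-HA vehicle level below that of LLC.

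Icam2, an adhesion ligand of leukocyte integrins, had levels of −5.11 and −1.81 in AB1-HA and of −3.08 and −2.08 in LLC, a difference of −2.31 that was −1.20 with normexp. Tlr2, a receptor for bacterial lipoproteins, went from −6.36 to −3.77 in AB1-HA and was at −2.92 on both LLC arrays, a difference of −2.60 that was −0.94 with normexp. The LLC arrays were level, and AB1-HA with IFN-γ was within 2-fold of them. Pnpla7 (−2.15), Tmem8b (−1.88), Gbp6 (−1.83), Mr1, which presents vitamin metabolites to T cells (−1.69), and the kinase Map3k8 (−1.62) were the other genes named in this class. With normexp the difference was −0.32 for Map3k8, −1.14 for Pnpla7, −1.25 for Tmem8b and −1.01 for Mr1.

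The gene lists are read against the shares over all members, 2.54% past 2-fold toward LLC and 1.69% toward AB1-HA, so few or no calls in a list of this size are near the background. Of 13 members in the receptor and JAK-STAT list, none reached 2-fold in either direction, and the list's median difference was −0.16, against 0.03 over all members. The difference was −0.39 for the ligand-binding chain Ifngr1, −0.13 for the second chain Ifngr2, −0.15 for Jak1 and −0.06 for Jak2. Stat2, a partner of type I interferon signalling, had effects of 3.82 in AB1-HA and 3.13 in LLC, and Stat3 had 2.16 and 1.67. Irf9 had effects of 2.53 and 3.23.

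Among 22 negative regulators of cytokine signalling, 1 lay past 2-fold toward LLC and none toward AB1-HA, against 2.54% and 1.69% of all members, which is near the background. That was the ubiquitin-like modifier Isg15, with levels of 2.33 and 5.98 in AB1-HA and of −1.51 and 3.57 in LLC, a difference of 1.43 (1.86 by another probe). The JAK inhibitors Socs1 and Socs3 had differences of −0.18 and 0.23. Of 8 IRF, BATF and NLRC regulators, Batf2 lay toward LLC and Nlrc5, the activator of MHC class I genes, toward AB1-HA at −1.13 (−0.69 with normexp). Irf1 had effects of 4.44 and 4.43, which differed by 1.01-fold.

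The interferon-inducible GTPases divided gene by gene. Of 6 immunity-related GTPases, Ifi47 and Tgtp2 lay toward LLC, while Igtp (−0.20), Irgm2 (0.00), Iigp1 (0.09) and Irgm1 (0.77) were within 2-fold. Of 5 guanylate-binding proteins, Gbp2 lay toward LLC at 1.22, with effects of 10.08 in AB1-HA and 11.30 in LLC. Gbp2b and Gbp6 lay toward AB1-HA, and Gbp9 (0.52) and Gbp10 (0.11) were within 2-fold. Genes of these families, and of the H2, Oas, Ifit, Phf11 and Apol9 families, have near-identical copies and are uncertain for cross-hybridisation.

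Of 26 MHC class I presentation members, 22 were within 2-fold between the lines, with median effects of 2.51 in AB1-HA and 2.73 in LLC and a median difference of −0.05. B2m, the light chain, had effects of 1.63 and 1.64, the peptide transporter Tap1 4.22 and 4.65, and the immunoproteasome subunit Psmb9 6.09 and 6.55. The 4 outside 2-fold were H2-Q8 and the immunoproteasome subunit Psmb8 (1.26, and 0.76 with normexp) toward LLC, and H2-T24 and the peptide-trimming enzyme Erap1 (−1.06) toward AB1-HA.

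Of 8 MHC class II presentation members, 4 lay toward AB1-HA and none toward LLC, against 1.69% and 2.54% of all members, and the median difference was −0.93. The AB1-HA effects of those 4 were 3.65 for H2-Eb1, 4.38 for Cd74, 2.18 for the peptide-exchange chain H2-DMa and 1.89 for Rfx5, a factor that binds the X box. The LLC effects were 0.33, 2.08, 0.92 and −0.01. Of these 4, Cd74 alone reached 2-fold in LLC. H2-DMa, with a difference of −1.27, was higher in LLC with vehicle, by 2.07, and with IFN-γ, by 0.81. The AB1-HA vehicle levels of the 4 were low, from −7.33 for Rfx5 to −5.44 for H2-DMa. With a minimum signal of 50, 3 members of the list were left, none of them past 2-fold, with a median of −0.40. With normexp the median of the list was −0.15 with 2 genes past 2-fold, and Rfx5 was at 0.045 in place of −1.89.

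Of 27 antiviral genes of the IFIT, OAS and ISG15 list, 6 lay toward LLC and 6 toward AB1-HA, against 2.54% and 1.69% of all members, with a median of −0.23. With vehicle, 16 of the 27 were at least 2-fold higher in AB1-HA, where 26.2% of all members had such a gap in either direction, and the median vehicle gap was −1.57. The genes toward LLC were Oas1a, Rtp4, Xaf1, Lgals3bp, Isg15 and Ifi27, and each of them was more than 2-fold lower in LLC with vehicle. Rtp4, a receptor transporter protein with antiviral action, had levels of 0.97 and 5.10 in AB1-HA and of −2.35 and 4.09 in LLC, a difference of 2.30. Xaf1, which promotes apoptosis, had effects of 4.73 and 6.85 (a difference of 2.13, and 0.93 with normexp).

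The genes toward AB1-HA were Ifit3, Dhx58, Nmi, Ifit2, Trim30a and Ifi35. Ifit3, a protein that binds foreign RNA, had levels of −2.44 and 2.64 in AB1-HA and of −5.72 and −2.54 in LLC, a difference of −1.89. Dhx58, an RNA helicase that tunes RNA sensing, had effects of 3.76 in AB1-HA and 2.26 in LLC. Ifit2 had effects of 1.42 and 0.10. Ifit3 and Trim30a were lower in LLC on both pairs of arrays, and Nmi was higher in LLC with vehicle. Genes of 1 functional list thus took opposite directions.

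Complement genes lay mostly toward AB1-HA. Of 11 members, 6 were past 2-fold toward AB1-HA and 1 toward LLC, against 1.69% and 2.54% of all members, and the median was −1.08. C2, a protease of the classical pathway, had levels of −1.28 and 2.64 in AB1-HA and of −1.86 and 0.95 in LLC. C1ra, a subunit of the first complex of that pathway, had 0.01 and 2.70 in AB1-HA and 0.89 and 2.18 in LLC, a difference of −1.39 (−1.46 by another probe). C1s1, its partner protease, had −1.19 and 2.50 in AB1-HA and −1.14 and 1.47 in LLC. These were higher with IFN-γ in both lines, by more in AB1-HA.

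C1rb (−1.62) and C4b (−1.12) also lay toward AB1-HA, and C3ar1, the receptor for a C3 fragment, was the gene toward LLC at 1.05. No complement gene was past 2-fold toward LLC with the array median, quantile normalization, loess, normexp or the minimum signal of 50. The central component C3 had effects of 0.22 and 0.47 and a difference of 0.25. With normexp the list's median was −0.25 and 3 genes were past 2-fold toward AB1-HA. C1rb was then at −0.90 and C4b at −0.19.

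**Figure D3:**
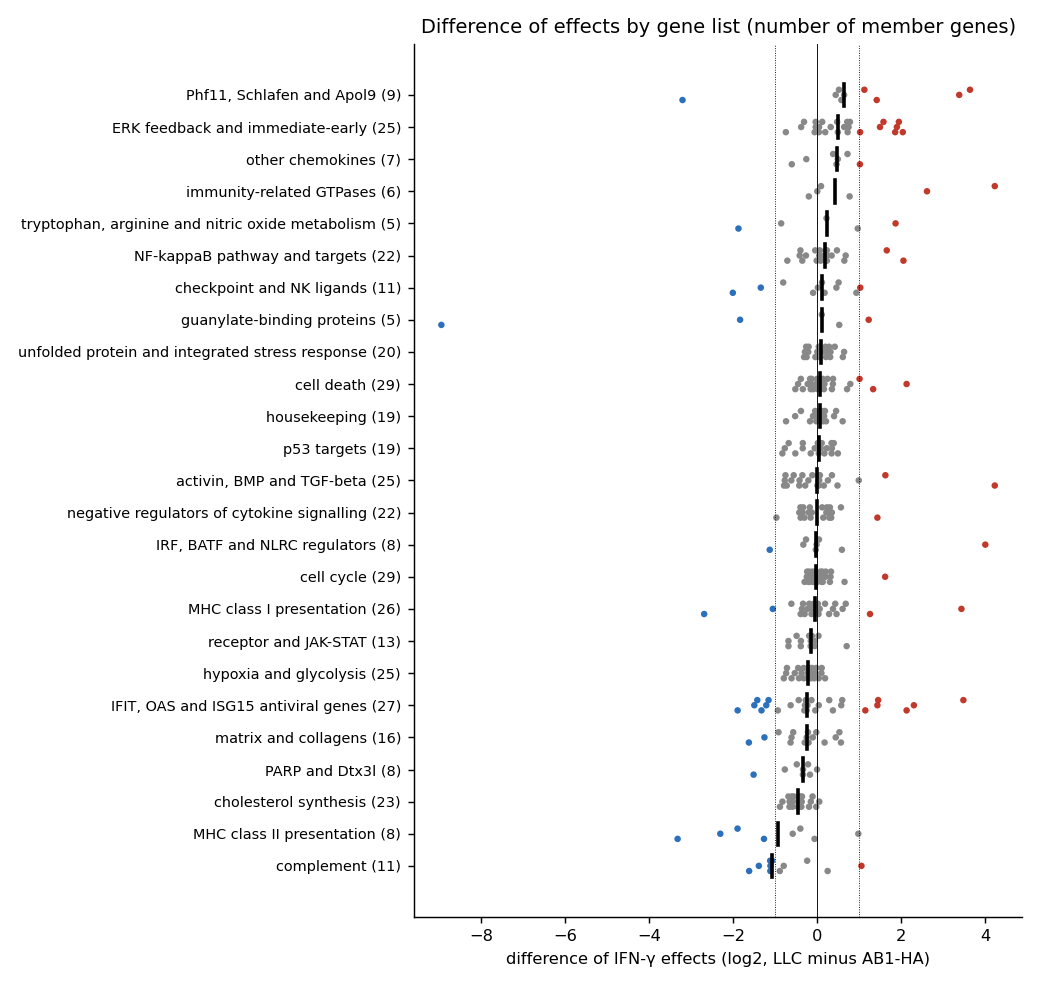
Difference of IFN-γ effects (x axis, log2, LLC minus AB1-HA) of the member genes of each pathway list with at least 5 members. Each point is 1 gene, red or blue where past 2-fold, and the black bar is the list's median. The complement and MHC class II lists have the lowest medians, −1.08 and −0.93, and the ERK list the second highest, 0.49.

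ERK feedback and immediate-early genes lay toward LLC. Of 25 members, 7 were past 2-fold toward LLC and none toward AB1-HA, against 2.54% and 1.69% of all members, and the median was 0.49. It remained above 0 under every alternative run, at 0.35 to 0.56. The median effect was −0.37 in AB1-HA and 0.02 in LLC, so the lower AB1-HA levels made up most of the list's difference. Egr1, an immediate-early transcription factor, had levels of 2.58 and 1.75 in AB1-HA and of 0.07 and 1.19 in LLC, a difference of 1.94. It was lower with IFN-γ in AB1-HA and higher in LLC, and the lines came within 2-fold. Egr2, a related factor, had effects of −0.28 and 1.29.

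Areg, Hbegf and Ereg, 3 of the ligands of the EGF receptor, were each at least 2-fold lower with IFN-γ in AB1-HA, and within 2-fold in LLC. Areg had levels of −1.97 and −3.82 in AB1-HA and of 0.58 and 0.63 in LLC, a difference of 1.90 that widened an existing gap. Ereg had 0.48 and −0.69 in AB1-HA and 0.15 and 0.48 in LLC, a difference of 1.49. Dusp5, a phosphatase of ERK, had effects of −2.09 and −0.06 (a difference of 2.04, and 0.43 with normexp). Fosb had a difference of 1.02. Among the feedback genes, Spry4 (0.75), Dusp4 (0.47) and Spred2 (0.32) lay on the LLC side within 2-fold, while Dusp6 (0.04), Etv4 (0.04), Etv5 (−0.06), Spred1 (−0.04) and Spry2 (0.12) were close to 0.

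The chemokine list with Cxcl9 had Cxcl10 and Ccl5 as its 2 members. Cxcl9 was not well above background on either vehicle array, so no difference of effects could be given. Its IFN-γ levels were 0.41 in AB1-HA and −0.23 in LLC, within 2-fold. Of 7 other chemokines, Cxcl1, which draws neutrophils, lay toward LLC at 1.02, and was under 2-fold with the array median and with loess. Ccl2, which draws monocytes, had effects of 2.76 and 2.15 although LLC was 73.4-fold higher with vehicle.

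Of 22 NF-κB genes, 2 lay toward LLC and none toward AB1-HA, against 2.54% and 1.69% of all members. The adaptor Traf1 had levels of −0.56 and −0.83 in AB1-HA and of −4.01 and −2.24 in LLC, a difference of 2.05 that was 1.20 with normexp. The alarmin Il33 had effects of −2.31 in AB1-HA and −0.66 in LLC, a difference of 1.65 in which both lines were lower with IFN-γ. Of 29 cell death genes, Xaf1, Casp4 (1.33, and 0.77 with normexp) and Casp1 (1.01) lay toward LLC, and both inflammatory caspases were lower in LLC on both pairs of arrays. Casp1 was under 2-fold with the array median, loess, normexp and the authors' table. In the activin, BMP and TGF-β list, Fst and the BMP antagonist Nog (1.62, and 0.64 with normexp) lay toward LLC among 25 members.

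Of 11 checkpoint and NK ligands, Cd274 and the lectin Lgals9 (−1.34) lay toward AB1-HA and Tnfrsf14 toward LLC (1.02, and below 2-fold in 4 of 8 alternatives). In tryptophan, arginine and nitric oxide metabolism, Nos2, the inducible nitric oxide synthase, had levels of −1.50 and −1.46 in AB1-HA and of −2.58 and −0.67 in LLC, a difference of 1.86. Wars lay the other way, and 3 other members were within 2-fold. Of 8 PARP genes with Dtx3l, Parp14 lay toward AB1-HA at −1.51, from a vehicle level 2.25-fold higher in LLC and IFN-γ levels within 2-fold.

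Cholesterol synthesis genes differed little but in the same direction. None of 23 members reached 2-fold, 22 of 23 had a negative difference, and the median was −0.45. Such a lean was not particular to this list. Also below 0 were 21 of 25 hypoxia and glycolysis genes, 8 of 8 in the PARP and Dtx3l list and 11 of 13 receptor and JAK-STAT genes. In the ERK feedback and immediate-early list, 19 of 25 lay above 0. For the cholesterol synthesis list, median effects were 0.39 in AB1-HA and −0.16 in LLC. Hmgcs1, a synthase early in the pathway, had levels of 4.32 and 4.85 in AB1-HA and of 3.80 and 3.64 in LLC. It was slightly higher with IFN-γ in AB1-HA and slightly lower in LLC. The median difference of the cholesterol synthesis list lay between −0.59 and −0.43 under the alternatives run. The number and sign of genes do not make 23 independent observations, since each value rests on the same 4 arrays.

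In the remaining lists the calls were mostly near the background shares of 2.54% and 1.69%. Among 29 cell cycle genes, the mitotic kinase Aurkb alone was past 2-fold, toward LLC at 1.62. None of 19 p53 targets, 20 stress response genes, 25 hypoxia and glycolysis genes or 19 housekeeping genes was past 2-fold, and their medians lay between −0.22 and 0.08. In the matrix list of 16 members, the adhesive glycoprotein Thbs1 (−1.63) and the collagen chain Col6a2 (−1.26) lay toward AB1-HA. Of 9 Phf11, Schlafen and Apol9 genes, 4 lay toward LLC and 1, Phf11b, toward AB1-HA, against 2.54% and 1.69% of all members, with a median of 0.64.

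Genes dim on 1 array have a bound in place of a value, because the signal there was not well above background. The side of a bound is set by which array is dim. LLC with vehicle or AB1-HA with IFN-γ can only bound toward LLC, and AB1-HA with vehicle or LLC with IFN-γ only toward AB1-HA. Of the 402 such genes, 110 were dim on LLC vehicle alone and 118 on AB1-HA vehicle alone. A bound reached 2-fold toward LLC for 69 and toward AB1-HA for 46, where 2.54% and 1.69% of all members had such a difference. The 402 are not members, so these shares are not like for like. Toward LLC, the bounds were at least 67.3-fold for the giant GTPase Gvin1, 46.8-fold for Zbp1, a sensor of Z-form nucleic acid, 26.4-fold for Oasl2, 21.8-fold for Gbp3 and 6.90-fold for Gm13043. In all 5 the dim array was LLC with vehicle. Toward AB1-HA, they were at least 29.0-fold for the class II peptide-exchange chain H2-DMb1, 14.1-fold for Ifi211, 8.67-fold for the semaphorin receptor Plxnc1, 4.84-fold for Pcp4l1 and 4.76-fold for D630023F18Rik. The dim array was AB1-HA with vehicle for each of these except Plxnc1, where it was LLC with IFN-γ.

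A further 47 genes were well above background with IFN-γ in both lines and on neither vehicle array. Of these, 10 were at least 2-fold higher in LLC with IFN-γ and 6 in AB1-HA. Among all members, 22.9% had a gap of at least 2-fold with IFN-γ in either direction. The 47 are not members and were selected by their dim vehicle arrays, so the shares are not like for like.

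The precision differed with signal. Repeat spots of a probe gave an SD of the difference of effects with a median of 0.0734 over 232 probes, and of 0.203 in the dimmest of 5 equal groups of members by mean signal. This covers spot noise on 1 slide and neither culture nor labelling. Of the 305 genes toward LLC, 185 were in that dimmest group and 15 in the brightest, and of the 203 toward AB1-HA, 115 and 4. Other probes were available for few called genes. Of 27 genes toward LLC with another member probe, 10 had that probe past 2-fold as well and 6 had the opposite sign, and of 22 toward AB1-HA, 11 and 3. Csf1r, a leukocyte marker with a difference of 2.09, was at 0.39 by another probe and at 1.24 as the mean over its probes.

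**Figure D4:**
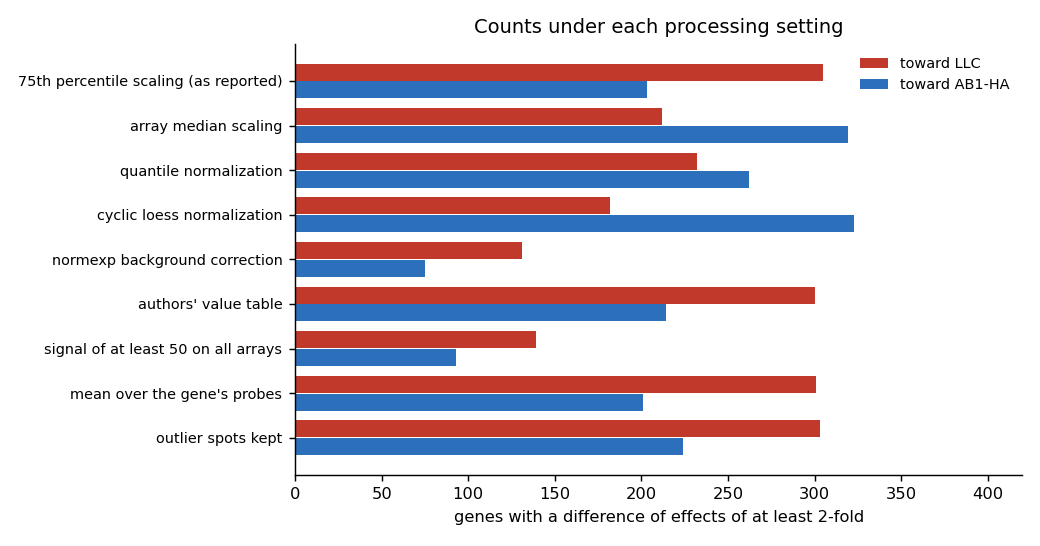
Number of genes with a difference of effects of at least 2-fold toward LLC (red) and toward AB1-HA (blue) under each processing setting, without the setting that applied no background filter. The bars toward LLC are the longer with the 75th percentile, 305 against 203, and the shorter with the array median, 212 against 319, and with cyclic loess, 182 against 323.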

How the data were processed

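Per the labels' protocols, column-purified total RNA was labelled with Cy3 and hybridised to Agilent arrays of a single colour, and all 4 arrays share 1 slide. Intensity was deposited as the scanner software left it: background had been subtracted by Feature Extraction 10.7.1.1 and arrays had not been normalized to each other, per the file headers. The series' table of log2 values was deposited by the authors, whose steps are not given in the sources used here. Its columns matched the log2 scanner signals scaled to the 75th percentile once each probe's median over the 4 arrays had been taken off (39313 probes), with medians of 0.108 and −0.078 for AB1-HA and −0.127 and 0.076 for LLC (vehicle, IFN-γ), and they ran the same way as the signal.

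Here, outlier spots and control spots were left out, repeat spots were averaged, and each array's log2 signals had that array's 75th percentile over gene probes subtracted, which was 1380 to 1598 intensity units. A probe was well above background if the scanner had marked at least 0.5 of its kept spots so, and no gene spot was saturated. Accessions were matched to gene symbols through a RefSeq table of GRCm38.p6: 26575 of 39429 probes were named, and 4973 member probes without a name stayed out of gene counts. For a gene with several named probes the brightest was used. A gene dim on 1 array got a bound, with its own signal on that array replaced by the array's dimmest well-above-background signal where that was higher.

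A treated class gene has a treated gap of at least 2-fold and a vehicle gap under 2-fold, a vehicle class gene the opposite. The genes named were the 15 furthest per direction, the 10 furthest per direction in the treated and vehicle classes, the genes at least 2-fold in opposite directions, the 3 largest per list, the 5 largest bounds per direction and a set of pathway genes named whatever their values; other list members named are examples chosen after their values were seen. Some genes that this rule names are not reported here. Members and lists were chosen with earlier results of these data known. Simulated data with a known difference gave calls for 67 of 67 genes at 2.83-fold, 66 of 66 at 8-fold, 0 of 67 at 1.5-fold and 0 of 11799 left as they were (11999 genes run), which covers spot noise only. The alternatives were the array median as scale, cyclic loess, quantile normalization, the authors' table, normexp background correction with offset 50, a minimum signal of 50, no background filter, the mean over probes, outlier spots kept, a 4-fold threshold and classes by the larger gap. The normexp, loess and quantile steps ran in limma 3.58.1 (R 4.3.3). All else ran in Python 3.11.15 (pandas 2.3.3, numpy 2.4.6, matplotlib 3.10.9).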

Additional observations from a re-analysis of the deposited data

Results flagged for a closer look

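Mlph, which encodes melanophilin, an adaptor for organelle transport, was the only member at least 2-fold higher with IFN-γ in AB1-HA and at least 2-fold lower in LLC. Its levels were −5.99 and −4.82 in AB1-HA and −4.93 and −6.09 in LLC, so the effects were 1.17 and −1.16 and the difference of effects −2.33. With normexp background correction the difference was −0.30. The difference was not tested.

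The cholesterol synthesis list had a median effect of 0.39 in AB1-HA and of −0.16 in LLC, with a median difference of effects of −0.45 and 22 of 23 members below 0. The lines' medians had opposite signs, and the difference was not tested.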

How the results depend on the processing

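No test could be run, and leaving out an array or a paired fit was not possible. No paired analysis was possible because each group holds 1 array. Of 88 named genes past 2-fold, 56 were past 2-fold in the same direction under every alternative that gave a value. Normexp turned the sign of 2 of the 88, Septin4 (0.15) and Rfx5 (0.045), and of 33 of the 501 called genes with a value under it. The cause was not tested. The median difference over all genes, 0.03 as reported, was −0.11 with the array median and −0.09 with loess, which shift the values toward AB1-HA. With no background filter it was 0.15 over a larger set of genes. The 305 and 203 called genes kept their calls there because that setting leaves the values of member genes unchanged.

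Counts that moved by more than 1.5 times are given here, with classes in the order treated, vehicle, both and neither. With the array median, 319 genes lay toward AB1-HA, the treated class toward LLC held 23, and the vehicle, both and neither classes toward AB1-HA held 77, 122 and 44. With cyclic loess, 182 genes lay toward LLC, with 67 in the vehicle class and 40 in neither, and 323 toward AB1-HA, with 84 in vehicle, 129 in both and 38 in neither. With normexp, 131 genes lay toward LLC, with 11 in treated, 47 in vehicle and 27 in both, and 75 toward AB1-HA, with 24, 11, 25 and 15 in the 4 classes. With a signal of at least 50, which left 10342 genes, 139 lay toward LLC (14, 64, 32 and 29) and 93 toward AB1-HA (32, 23, 26 and 12). With no background filter, over 20085 genes, 1394 lay toward LLC (281, 545, 301 and 267) and 883 toward AB1-HA (258, 205, 325 and 95). At 4-fold the counts were 35 and 26. With the larger gap deciding, the treated and vehicle classes held 90 and 215 genes toward LLC, and 109 and 94 toward AB1-HA. Quantile normalization, the authors' table, the mean over probes and outlier spots kept moved no count by more than 1.5 times.

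Low signal limits these values: the dimmest of 5 equal groups by signal held 185 of the 305 and 115 of the 203.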

Other observations

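Among genes with no difference of effects because neither vehicle array was well above background, Serpina3f, a protease inhibitor of the antichymotrypsin family, was at −5.50 with IFN-γ in AB1-HA and at 0.70 in LLC, a gap of 6.21. Saa3, an acute-phase protein, was at −6.12 and −3.87. On the other side, Ido1, the enzyme that degrades tryptophan, was at −1.75 in AB1-HA and −6.98 in LLC, a gap of −5.22, and Acod1, which makes itaconate, at −1.58 and −4.00. The cysteine protease Ctss was at −3.47 and −6.37, and the class II chain H2-Ab1 at −5.44 and −4.36, which is higher in LLC and thus opposite to H2-Eb1. The GTPases Gbp4 (3.51 and 3.82) and Gbp7 (1.08 and 1.84) and the perforin-like Mpeg1 (1.43 and 1.13) were within 2-fold. These genes were chosen after their values were seen.

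Member probes without a gene name lay toward LLC more often than member probes as a whole. Of 4973, 319 were past 2-fold toward LLC (6.41%) and 55 toward AB1-HA (1.11%), with a median of 0.21. Of all 20690 member probes, 3.38% and 1.45% were. Among named genes in the dimmest of the 5 groups by mean signal, the shares were 7.71% and 4.79%. The signal of the unnamed probes was not compared.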
